A study of Mus musculus with 36 samples.

Results

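The 52 genes described here encode the machinery with which the endoplasmic reticulum (ER) receives, folds, glycosylates, inspects and disposes of secreted and membrane proteins. They were taken by gene symbol from a list drawn up for this description, all 52 were found among the 38283 genes of the deposited count table, and all 52 were among the 13945 genes expressed well enough to be tested. They were sorted by role into 17 chaperone and folding genes, 10 genes of ER-associated degradation (ERAD), 23 translocation and glycosylation genes and 2 genes of an ER exit receptor. Their RNA was measured in the livers of 36 male C57Bl/6J mice, 6 in each of 6 groups. Wild-type mice and mice with 1 wild-type and 1 Y657* allele of Pik3r1 (WT/Y657*) were compared in 3 feeding states, namely fed with chow, fasted for 16 h, and refed with chow for 6 h after such a fast. The mice were 16 weeks old and are named as in the labels, in which ALC, ONF and RF6 stand for fed, fasted and refed. Pik3r1 encodes p85alpha, the regulatory subunit of phosphoinositide 3-kinase, through which insulin signals, and the allele is a stop codon knocked into the gene by homologous recombination, so that every tissue carries it and not the liver alone.

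Secreted and membrane proteins enter the ER through a channel, the Sec61 translocon, to which the ribosome is brought by the signal recognition particle and its receptor. Signal peptidase removes the leader sequence, oligosaccharyltransferase adds a sugar chain, and chaperones, protein disulphide isomerases and the calnexin and calreticulin cycle fold the chain, while ERAD retrieves chains that fail to fold and passes them to the proteasome. Hepatocytes secrete most plasma proteins and depend heavily on this system, which is adjusted to the folding load by the unfolded protein response, whose factors ATF6 and XBP1 bind a bipartite promoter motif known as the ER stress response element.

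The summed level of 10 hepatocyte markers, in counts per 1000000 (CPM) after scaling by the trimmed mean of M-values, lay between 75820 and 125300 in every library. Total counts ranged from 8839481 to 19542778 per mouse. Pik3r1 itself had median levels of 132.1 CPM in fed wild-type and 132.9 CPM in fed WT/Y657* mice and did not pass the test between genotypes in any state, and since a gene-level count does not separate the alleles it does not check the genotype. Of the 52 genes, 19 have exons that overlap those of another annotated gene, 17 of them a gene on the opposite strand, and whether the authors counted by strand is not given in the sources used here, so their counts may include some reads of the neighbour. Livers were measured whole, so fewer cells of a type and less RNA per cell cannot be told apart.

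Levels between genes were compared in fed wild-type mice as CPM per kilobase of annotated exon. The highest was P4hb, the protein disulphide isomerase PDI, at 663.2 CPM per kilobase, followed by Hspa5, the ER Hsp70 chaperone BiP, at 464.6, by Calr, the lectin chaperone calreticulin, at 415.2, and by Hsp90b1, the ER Hsp90 GRP94, at 385.8. Subunits of the translocon and of signal peptidase lay lower on this scale, for example Sec61a1 at 41.3 and Sec11a at 10.1 CPM per kilobase. Derl3, a derlin of the ERAD channel, was the lowest at 4.14 CPM per kilobase. Exon length here is the union of all annotated exons, and with the longest transcript instead Hspa5 stood at 535.1.

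Promoter sequences, from 250 bases before to 50 bases after the annotated start, were matched by symbol in RefSeq (GRCm38.p6) for 42 of the 52 genes. The ER stress response element, CCAAT, any 9 bases and CCACG on either strand, was present in 9 of these 42 (21.4%). It was present in 0.137% of the 27025 genes with a promoter and in 0.178% of the 9564 of them that were tested. It was found in 7 of 15 chaperone and folding genes, in 2 of 9 ERAD genes, and in none of the 17 translocation and glycosylation genes with a promoter. The bases CCACG alone, which the element contains, were present in 81.0% of the 42 genes, in 35.5% of all genes with a promoter and in 51.1% of those tested. The elements are printed 5′ to 3′ in the orientation of the motif with its fixed ends in capitals, because the responses below are set beside them.
Hspa5 (chr2:34772025-34772043, + strand, starting 65 bases before the transcription start): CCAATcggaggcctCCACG
Hsp90b1 (chr10:86705638-86705656, - strand, 212 bases before the start): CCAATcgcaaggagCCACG
Hsp90b1, another copy (chr10:86705533-86705551, + strand, opposite to the gene, 107 bases before the start): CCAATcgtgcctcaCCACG
Pdia6 (chr12:17266491-17266509, + strand, 98 bases before the start): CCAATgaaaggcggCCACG
Calr (chr8:84847075-84847093, + strand, opposite to the gene, 162 bases before the start): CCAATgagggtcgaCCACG
Canx (chr11:50325800-50325818, - strand, 145 bases before the start): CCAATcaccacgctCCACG
Dnajc3 (chr14:118937827-118937845, + strand, 105 bases before the start): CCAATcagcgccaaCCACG
Creld2 (chr15:88819520-88819538, - strand, opposite to the gene, 126 bases before the start): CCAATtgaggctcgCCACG
Syvn1 (chr19:6046532-6046550, + strand, 44 bases before the start): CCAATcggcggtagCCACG
Derl3 (chr10:75893242-75893260, - strand, opposite to the gene, 156 bases before the start): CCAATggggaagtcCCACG
All 10 elements lay upstream of the start. For Hspa5, the most abundant gene with an element, the 75 bases before the start are also given (chr2:34772015-34772089, + strand, the element in capitals): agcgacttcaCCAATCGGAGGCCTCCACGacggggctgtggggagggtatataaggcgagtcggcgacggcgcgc

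The first question was how these genes respond to the loss and return of food. In wild-type mice the whole set was lower after the fast: 50 of 52 genes fell and none rose, whereas 17.5% of all genes tested fell (edgeR quasi-likelihood test, Benjamini-Hochberg adjusted p under 0.05). The median log2 fold change was -0.94, against 0.01 over all genes. For 44 of the 52, no fasted mouse reached the level of any fed mouse, compared with 9.70% of all genes. In the same comparison 14 of 25 acute-phase genes fell and none rose, and 4 of 10 hepatocyte markers fell and 1 rose. All 50 calls were kept when any 1 of the 12 mice was left out. The exceptions were Sec62, a translocon-associated receptor, at 0.04 ± 0.06 (SE) on the log2 scale, and Spcs1, a signal peptidase subunit, at -0.18 ± 0.08 (adjusted p = 0.0956).

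All 17 chaperone and folding genes fell in fasted wild-type mice, with a median log2 fold change of -1.25. Hspa5 ranged from 1263 to 2459 CPM with a median of 1924 in fed mice, and from 531.0 to 821.5 CPM with a median of 666.6 in fasted mice. The groups did not overlap, and the log2 fold change was -1.57 ± 0.20 (adjusted p = 2.57e-07). Sdf2l1, which works with BiP and its J-domain partners, went from a median of 66.2 CPM (32.5 to 87.8) to 6.60 CPM (5.28 to 14.03), a log2 fold change of -3.09 ± 0.32. Creld2, an ER-resident disulphide isomerase-like protein, went from 153.3 CPM (55.8 to 171.5) to 21.5 CPM (18.03 to 24.3), a log2 fold change of -2.68 ± 0.30. Sdf2l1 and Creld2 had the largest decreases of the 52 genes, and in neither did the groups overlap. Hyou1, the nucleotide exchange factor of BiP, fell by 2.10 on the log2 scale, and Manf, a small ER protein that is also secreted, fell by 2.08. The disulphide isomerases Pdia3 and Pdia4 changed by -1.20 ± 0.13 and -1.10 ± 0.14, and the membrane lectin chaperone calnexin (Canx) by -0.58 ± 0.08, from a median of 735.3 CPM (703.9 to 841.8) to 497.6 CPM (482.5 to 546.6). The J-domain proteins Dnajb9 and Dnajc10 fell by 0.71 and 0.40 with overlap between groups. P4hb, the most abundant per kilobase, had the smallest change among the chaperones, at -0.35 ± 0.08, with medians of 1907 CPM in fed and 1478 CPM in fasted mice.

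All 10 ERAD genes also fell in fasted wild-type mice, and their median log2 fold change was -0.75. Syvn1, the ubiquitin ligase HRD1 at the centre of ERAD, had a median of 76.7 CPM (35.4 to 107.6) in fed and 27.5 CPM (23.6 to 35.2) in fasted mice, a log2 fold change of -1.45 ± 0.21. Sel1l, its partner, changed by -0.77 ± 0.11. Edem1, a lectin that selects glycoproteins for disposal, changed by -1.02 ± 0.08, with medians of 353.2 and 173.1 CPM and no overlap. Edem2 and Edem3, relatives of Edem1, changed by -0.94 ± 0.10 and -0.63 ± 0.09, and Derl2 by -0.72 ± 0.10. Derl1 and Os9, another lectin of this pathway, had small decreases of -0.23 ± 0.06 and -0.28 ± 0.08. Derl3 changed by -2.34 ± 0.66 at a low level, with a median of 9.05 CPM (1.82 to 13.5) in fed and 0.926 CPM (0.116 to 4.77) in fasted mice, and its groups overlapped.

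Of the 23 translocation and glycosylation genes, 21 fell, with a median log2 fold change of -0.86. Spcs3, a signal peptidase subunit, ranged from 106.3 to 118.5 CPM in fed and from 46.8 to 53.9 CPM in fasted wild-type mice, a log2 fold change of -1.13 ± 0.06 (adjusted p = 5.00e-16). The translocon subunits Sec61a1, Sec61b and Sec61g changed by -0.996 ± 0.08, -1.26 ± 0.09 and -1.18 ± 0.14. Of the translocon-associated complex, Ssr1 changed by -1.14 ± 0.08, Ssr3 by -0.84 ± 0.08 and Ssr2 and Ssr4 by -0.47 ± 0.07 and -0.46 ± 0.08. Among oligosaccharyltransferase subunits, the catalytic Stt3a changed by -0.93 ± 0.08, Ddost by -1.06 ± 0.08, Rpn1 by -0.86 ± 0.08, Ostc changed by -1.16 ± 0.10, Rpn2 by -0.41 ± 0.07 and Dad1 by -0.25 ± 0.07. Both subunits of the signal recognition particle receptor fell, Srprb by 1.004 and Srpr by 0.36 on the log2 scale. Lman1 and Mcfd2, which together carry glycoproteins out of the ER, fell by 0.76 and 0.30.

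**Figure D1:**
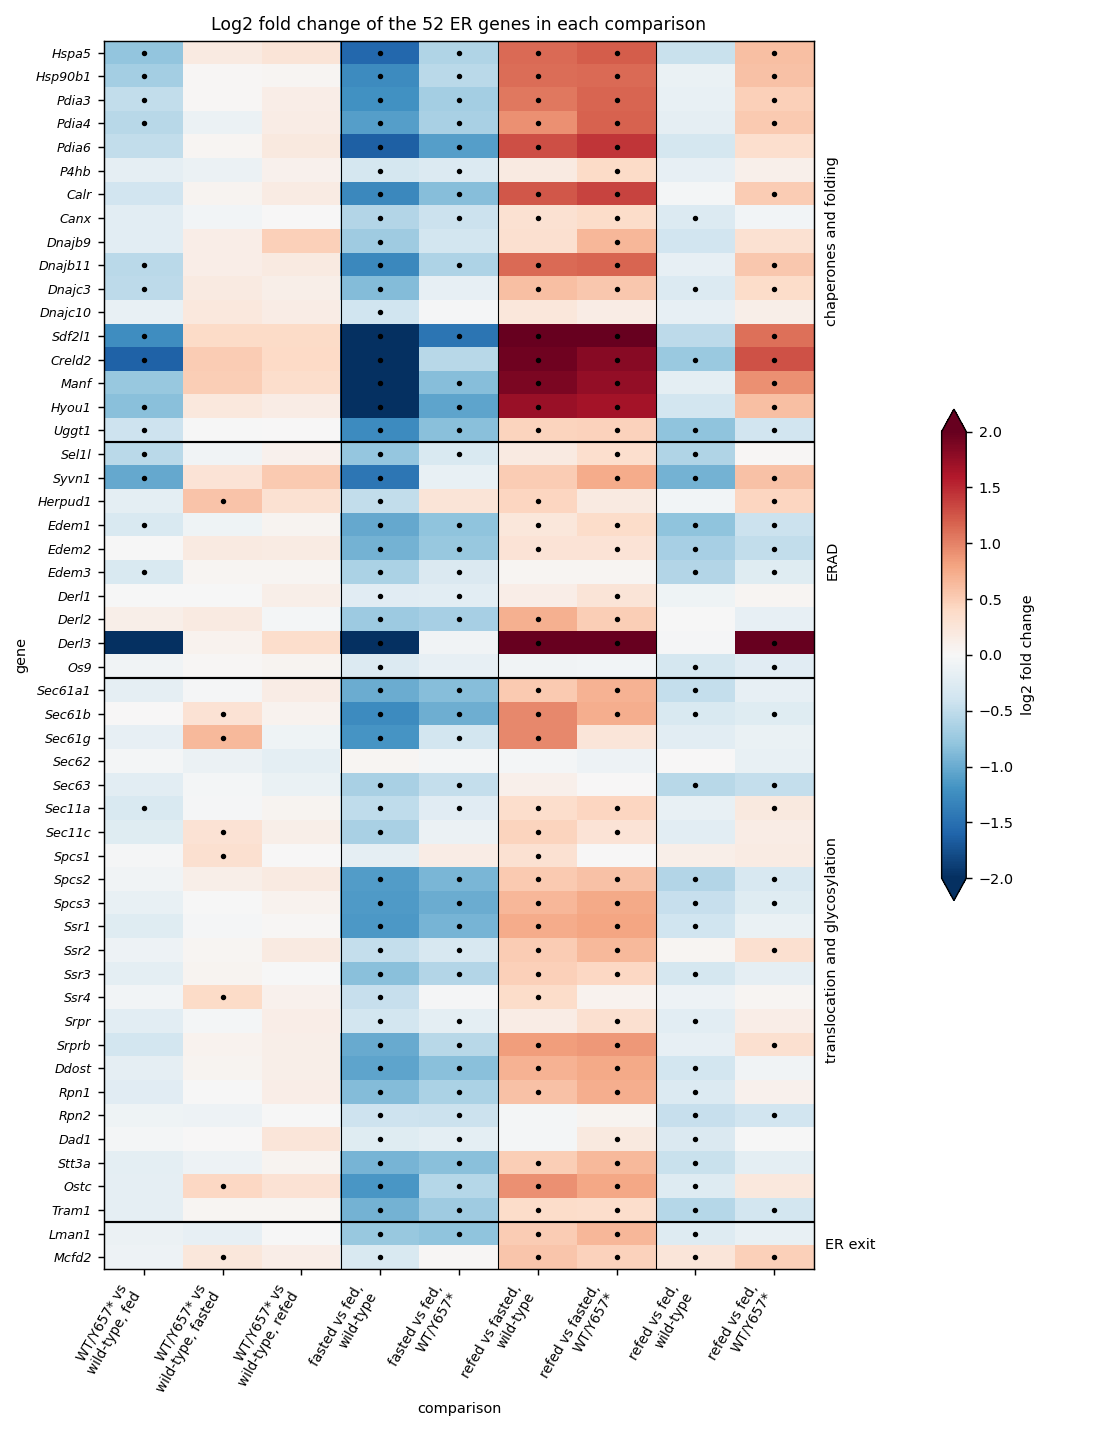
Log2 fold change (colour, cut off at 2 in either direction) of each of the 52 genes (rows, in blocks by role) in 9 comparisons (columns), with a dot where the adjusted p was under 0.05. The fasting columns are blue throughout for wild-type mice apart from Sec62, and the refeeding columns are red for most genes in both genotypes.

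In WT/Y657* mice fasting lowered 39 of the 52 genes and raised none, against 17.7% of all genes that fell, and the median log2 fold change was -0.55. The groups did not overlap for 21 genes, compared with 6.57% of all genes. By role, 13 of 17 chaperone and folding genes, 6 of 10 ERAD genes and 19 of 23 translocation and glycosylation genes fell. Hspa5 had a median of 1091 CPM (865.9 to 1488) in fed and 600.3 CPM (487.3 to 1488) in fasted WT/Y657* mice, a log2 fold change of -0.61 ± 0.20. Its ranges overlapped because of 1 fasted mouse, mouse ONF_MT_826, at 1488 CPM, while the other fasted WT/Y657* mice lay at or under 771.2 CPM, and without that mouse the change was -0.93. Sdf2l1 changed by -1.47 ± 0.31, Hyou1 by -1.06 ± 0.20 and Pdia6, a disulphide isomerase, by -1.10 ± 0.14. Creld2 did not pass the test, at -0.55 ± 0.28 (adjusted p = 0.141), nor did Syvn1, at -0.15 ± 0.21. Spcs3 changed by -0.996 ± 0.06 and Sec61b by -0.98 ± 0.09, both without overlap.

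Tested directly, as a difference between the genotypes' responses to fasting, 14 of the 52 genes differed, all in the positive direction, compared with 2.59% of all genes. For 13 of them the estimate was a smaller decrease in WT/Y657* mice, and for Herpud1, an ERAD adaptor, the change was -0.50 ± 0.15 in wild-type mice, while the 0.26 ± 0.15 of the mutant genotype did not pass the test. They were 8 chaperone and folding genes, 2 ERAD genes and 4 translocation and glycosylation genes. The difference was 2.13 ± 0.40 on the log2 scale for Creld2 (adjusted p = 0.00261), 0.70 ± 0.13 for Dnajc3, an ER co-chaperone also known as P58IPK (adjusted p = 0.00224), 1.29 ± 0.30 for Syvn1, 1.24 ± 0.30 for Manf and 1.03 ± 0.27 for Hyou1. Among the translocation and glycosylation genes it was 0.81 ± 0.19 for Sec61g, 0.60 ± 0.14 for Ostc, 0.53 ± 0.13 for Sec11c and 0.43 ± 0.11 for Ssr4. These 9 genes were called whichever of the 24 mice was left out. The other 5, namely Hspa5, Hsp90b1, Sdf2l1, Dnajb11 and Herpud1, were not, and the count fell to 9 without WT/Y657* fasted mouse ONF_MT_826, WT/Y657* fed mice ALC_MT_857 or ALC_MT_868, wild-type fasted mouse ONF_WT_918 or wild-type fed mouse ALC_WT_847. Without mouse ONF_MT_826 the difference for Hspa5 was 0.64 in place of 0.96, and for Hsp90b1 0.48 in place of 0.71. The response to fasting shares its fed mice with the comparison of fed genotypes given below, so the 2 are not independent, and a lower fed level and a smaller decrease are the same measurement in part. It also shares the runs of mouse numbers that nearly separate the genotypes among fed mice, described below. With the run as a covariate, chosen after seeing the data, none of the 52 genes was called by edgeR, and 109 of all genes were. In that fit 8 of the 12 genes named in every comparison among the 14 had an unadjusted p under 0.05, with estimates of 1.42 for Creld2, 0.91 for Herpud1, 0.65 for Ostc and 0.46 for Hspa5.

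Refeeding for 6 h raised most of the set in both genotypes. In wild-type mice 39 of 52 genes rose and none fell, against 16.5% of all genes that rose, and in WT/Y657* mice 42 rose and none fell, against 17.1%. Median log2 fold changes were 0.51 and 0.56. Refed and fasted mice did not overlap for 33 genes in wild-type mice, compared with 9.14% of all genes, and for 30 genes in WT/Y657* mice, compared with 6.96%. The rise was largest for the chaperone and folding genes, with medians of 1.12 in wild-type animals and 1.16 in WT/Y657* mice, smaller for translocation and glycosylation genes at 0.50 and 0.43, and smallest for ERAD genes at 0.25 and 0.30. These orders of medians were not tested.

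In refed wild-type mice Hspa5 had a median of 1486 CPM (1225 to 1640), a log2 fold change of 1.13 ± 0.20 over the fasted mice, and in refed WT/Y657* mice 1643 CPM (1336 to 2278), a change of 1.21 ± 0.20. All refed wild-type mice lay above all fasted wild-type mice, while fasted WT/Y657* mouse ONF_MT_826 lay within the refed range of its genotype. Sdf2l1 rose by 2.57 ± 0.32 and 2.57 ± 0.31 in the 2 genotypes, to medians of 46.0 and 67.0 CPM. Creld2 rose by 1.94 ± 0.29 and 1.83 ± 0.29, and Manf by 1.89 ± 0.22 and 1.76 ± 0.22. Derl3 rose by 2.32 ± 0.66 and 2.60 ± 0.66, to medians of 5.89 and 8.53 CPM. Calr, Pdia6 and Dnajb11, a BiP co-chaperone, each rose by more than 1 on the log2 scale in both genotypes, and none of their groups overlapped.

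The translocon subunit Sec61b rose by 0.96 ± 0.09 and 0.73 ± 0.09, and Spcs3 by 0.67 ± 0.06 and 0.76 ± 0.06. Of the oligosaccharyltransferase, Ddost rose by 0.70 ± 0.08 and 0.75 ± 0.08, and Stt3a by 0.50 ± 0.08 and 0.64 ± 0.08. Several genes that had fallen with the fast did not pass the test on refeeding in either genotype. They included Os9, at -0.07 ± 0.08 and -0.05 ± 0.08, Edem3, at 0.04 ± 0.09 in each, Sec63, a translocon J-domain protein, at 0.10 ± 0.08 and 0.01 ± 0.08, and Rpn2, at -0.04 ± 0.07 and 0.05 ± 0.07. Between the genotypes' responses to refeeding 1 gene differed, Sec61g, with a smaller rise in WT/Y657* mice (-0.72 ± 0.19, adjusted p = 0.0399), compared with 1.46% of all genes that differed in that direction. That single call was lost without any 1 of 15 of the 24 mice (WT/Y657* fasted ONF_MT_806, ONF_MT_826, ONF_MT_827 and ONF_MT_923, WT/Y657* refed RF6_MT_810, RF6_MT_817 and RF6_MT_898, wild-type fasted ONF_WT_824, ONF_WT_825, ONF_WT_919 and ONF_WT_920, wild-type refed RF6_WT_815, RF6_WT_816, RF6_WT_828 and RF6_WT_901), the difference then lying between -0.63 and -0.72, and it was also lost with exon length and GC content corrected.

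**Figure D2:**
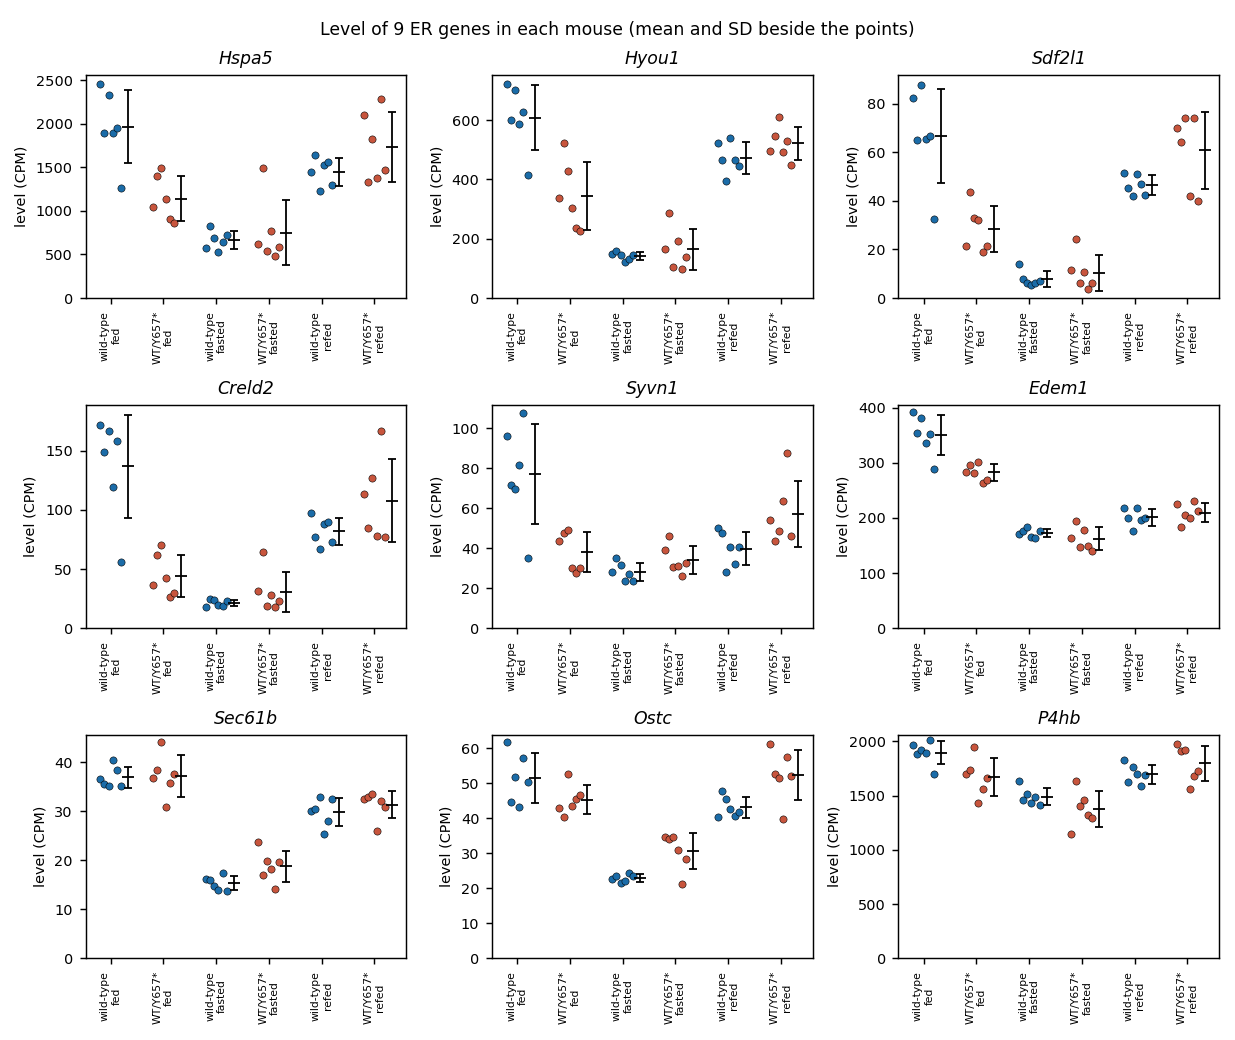
Level in CPM (vertical axes, from 0) of 9 ER genes in each mouse (points, 6 per group), with the mean and SD beside them. Hspa5, Hyou1, Sdf2l1, Creld2 and Syvn1 vary widely among fed wild-type mice, where mouse ALC_WT_860 is the lowest, and the fed and fasted mice of each genotype do not overlap for Sec61b and Edem1.

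How far the levels returned in 6 h was examined by comparing refed with fed mice. The limits of mouse number and hour of harvest given above apply here too. In refed wild-type mice 26 of the 52 genes were still lower than in fed mice, against 14.3% of all genes, and 1, Mcfd2, was higher (0.25 ± 0.07), against 13.2%. The median log2 difference was -0.27 for chaperone and folding genes, all 17 of which had negative estimates, -0.47 for ERAD genes and -0.28 for translocation and glycosylation genes. Those that passed were 4 of the 17 chaperone and folding genes (Canx, Dnajc3, Creld2 and Uggt1, the glucosyltransferase that recognises unfolded glycoproteins), 6 of 10 ERAD genes and 15 of 23 translocation and glycosylation genes, and the difference between roles was not tested. Hspa5 had medians of 1924 CPM in fed and 1486 CPM in refed wild-type mice, a difference of -0.44 ± 0.20 that did not pass (adjusted p = 0.103). Calr had medians of 1197 CPM in fed and 1163 CPM in refed wild-type mice, a difference of -0.04 ± 0.13, and Hsp90b1 medians of 1562 and 1440 CPM, a difference of -0.13 ± 0.15. In contrast, Edem1 had a median of 353.2 CPM (289.5 to 392.6) in fed and 199.2 CPM (176.2 to 218.5) in refed mice, a difference of -0.80 ± 0.08 without overlap. Syvn1 was lower by -0.95 ± 0.21, Uggt1 by -0.81 ± 0.10, Spcs2, a signal peptidase subunit, by -0.59 ± 0.08 and Tram1, a translocating-chain protein, by -0.58 ± 0.08.

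In WT/Y657* mice 18 of the 52 genes were higher in the refed than in the fed state, against 13% of all genes, and 11 were lower, against 13.1%. The higher genes comprised 11 of the 17 chaperone and folding genes, among them Creld2 (1.28 ± 0.28), Sdf2l1 (1.10 ± 0.29), Manf (0.91 ± 0.21) and Hspa5 (0.60 ± 0.20). Derl3 was higher by 2.53 ± 0.64. The count of higher genes was 12 without the fed mouse ALC_MT_868. Edem1 (-0.43 ± 0.08), Edem2 (-0.48 ± 0.10) and Sec63 (-0.47 ± 0.08) were lower. The difference between the genotypes passed the test for 3 genes, compared with 0.129% of all genes, namely Creld2 (2.02 ± 0.39), Syvn1 (1.54 ± 0.29) and Dnajc3 (0.64 ± 0.13), each with an adjusted p of 0.0271. With the run of mouse numbers as a covariate none was called, nor was any other of the genes tested, and the estimates were 1.32, 1.13 and 0.34, each with an unadjusted p under 0.05. None of the 3 was called in every fit that left out 1 mouse. The count was 0 without WT/Y657* fed mice ALC_MT_868 or ALC_MT_869, wild-type fed mice ALC_WT_847 or ALC_WT_849, WT/Y657* refed mouse RF6_MT_898 or wild-type refed mouse RF6_WT_901, 8 without WT/Y657* fed mouse ALC_MT_858 and 7 without wild-type fed mouse ALC_WT_860.

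**Figure D3:**
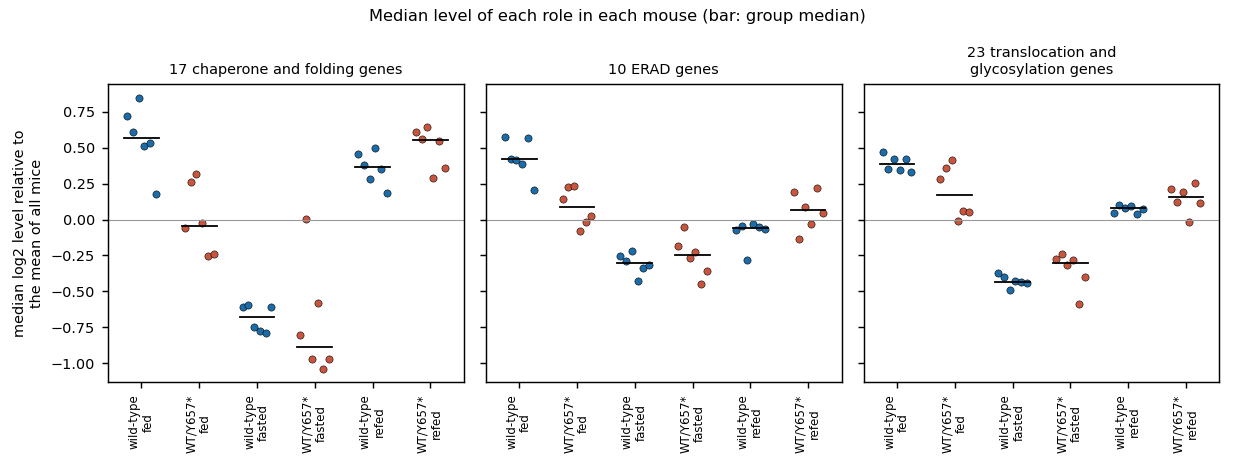
Median over the genes of a role, in each mouse, of the log2 level (CPM + 0.5) relative to that gene's mean over all 36 mice (vertical axis), with a bar at the group median. For the chaperone and folding genes the fed wild-type mice span 0.18 to 0.85 and the fed WT/Y657* mice -0.26 to 0.32, and WT/Y657* mouse ONF_MT_826 stands apart from the other fasted mice at 0.01.

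The second question was whether the mutation altered these genes within a state. In fed mice 15 of the 52 genes were lower in WT/Y657* than in wild-type mice and none was higher, against 1.15% of all genes that were lower. By role they were 10 of 17 chaperone and folding genes, with a median log2 fold change of -0.52 over the 17, 4 of 10 ERAD genes, and 1 of 23 translocation and glycosylation genes. The median over all 52 was -0.21, against 0.01 over all genes. For none of the 52 were the groups without overlap, but this held for only 0.574% of all genes, so that count is that of the background.

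Creld2 had a median of 153.3 CPM (55.8 to 171.5) in fed wild-type and 39.5 CPM (26.1 to 70.1) in fed WT/Y657* mice, a log2 fold change of -1.62 ± 0.28 (adjusted p = 0.00279). Sdf2l1 had medians of 66.2 CPM (32.5 to 87.8) and 26.9 CPM (18.9 to 43.6), a change of -1.24 ± 0.29 (adjusted p = 0.0213). In both, wild-type mouse ALC_WT_860 lay inside the WT/Y657* range and the other 5 wild-type mice lay above it. Hspa5 had medians of 1924 CPM (1263 to 2459) and 1091 CPM (865.9 to 1488), a change of -0.79 ± 0.20 (adjusted p = 0.0318), and Hyou1 changed by -0.83 ± 0.19. Dnajc3, with -0.52 ± 0.09, and Hsp90b1, with -0.69 ± 0.15, were also lower. Among the ERAD genes Syvn1 was lower by 1.02 ± 0.21 on the log2 scale and Sel1l by 0.54 ± 0.11. Derl3 had the largest estimate, at -2.21 ± 0.65, and did not pass the test (adjusted p = 0.0584). The translocation and glycosylation genes lay between -0.37 for Srprb and 0.01 for Sec61b, and only Sec11a, a catalytic subunit of signal peptidase, passed, at -0.30 ± 0.07.

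The fed comparison depended on which mice entered it. Leaving out 1 mouse at a time gave 5 to 23 calls (35 to 456 genes lower among all tested, against 161 with every mouse), 5 without WT/Y657* mice ALC_MT_868 or ALC_MT_869 or wild-type mice ALC_WT_847 or ALC_WT_849, 7 without WT/Y657* mouse ALC_MT_866, and 23 without WT/Y657* mouse ALC_MT_858. Creld2, Dnajc3, Hsp90b1, Sel1l and Syvn1 were called in all 12 of these fits. With the 12 fed libraries fitted alone 1 gene was called, and 30 of 12962 genes tested were. The mouse numbers in the labels fall into 3 runs that nearly separate the genotypes, since mice ALC_WT_847 to ALC_WT_850 were all wild-type, ALC_MT_866 to ALC_MT_869 all WT/Y657*, and only the run from ALC_WT_856 to ALC_WT_860 held both, with 2 wild-type and 3 WT/Y657* mice. With the run as a covariate none of the 52 genes was called by edgeR, and neither was any of the 13945 genes (651 at an unadjusted p under 0.05), so this count is that of the background. Creld2 (-0.92) was the only one of the 11 named genes called before with an unadjusted p under 0.05. Within the mixed run all 17 chaperone and folding genes had a lower mean in WT/Y657* mice. The median difference was -0.18 on the log2 scale, and Hspa5 differed by -0.28, Sdf2l1 by -0.57 and Creld2 by -0.79. These lower means rested largely on wild-type mouse ALC_WT_856. Its median log2 level over these genes, relative to each gene's mean over all mice, was 0.53. Wild-type mouse ALC_WT_860, at 0.18, lay below WT/Y657* mice ALC_MT_858 (0.26) and ALC_MT_859 (0.32) and above ALC_MT_857 (-0.06). The 17 genes come from the same few libraries, so their shared direction is not 17 separate events. Outside the mixed run, genotype and run cannot be told apart, and what the runs stand for is not stated in the labels.

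Other gene groups moved with the fed comparison, in which 161 of all 13945 genes were lower and 169 higher. Of 25 acute-phase genes, which hepatocytes express in inflammation, 9 were lower in fed WT/Y657* mice and none was higher, and their summed level ranged from 36720 to 91510 CPM in wild-type and from 32070 to 42670 CPM in WT/Y657* mice. All 12 macrophage markers tested had positive estimates, with an unadjusted p under 0.05 for each and none passing after adjustment, and sums of 345.6 to 508.7 CPM in wild-type and 320.9 to 1136 CPM in WT/Y657* mice. Of 14 plasma and B cell markers, cells rich in ER proteins, 7 were tested and 1 was higher, the sums being 5.87 to 10.4 and 5.65 to 34.2 CPM. Of 11 stellate cell and fibroblast markers 2 were higher and 10 had positive estimates, the sums being 382.7 to 580.3 and 558.1 to 773.5 CPM. All 10 endothelial markers had positive and 9 of 10 hepatocyte markers negative estimates, none passing, with medians of 0.16 and -0.18. Of 19 pancreatic acinar markers 15 were at 0 in all mice of each fed group, and 3 were at 0 in all fasted wild-type mice. Their sums were 18.7 to 27.6 CPM in fed wild-type and 8.09 to 21.1 CPM in fed WT/Y657* mice, and the 1 marker tested differed by -0.63, at an unadjusted p under 0.05 and without passing after adjustment. The part of these in the ER genes was not tested.

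In fasted mice 8 genes passed the test between genotypes, all higher in WT/Y657* mice and none of them a chaperone, against 6.43% of all genes that were higher. They were Sec61b and Sec61g of the translocon, Sec11c and Spcs1 of signal peptidase, Ssr4 of the translocon-associated complex, Ostc of oligosaccharyltransferase, Herpud1, and Mcfd2. Sec61g had medians of 11.8 CPM (8.96 to 14.2) in wild-type and 19.7 CPM (12.9 to 22.3) in WT/Y657* mice, a log2 fold change of 0.64 ± 0.14 (adjusted p = 0.00198). Herpud1 had medians of 337.8 CPM (210.3 to 398.7) and 469.5 CPM (387.2 to 549.2), a change of 0.57 ± 0.15. Ssr4 was the 1 gene without overlap, at 48.4 to 59.1 CPM in wild-type and 60.3 to 81.2 CPM in WT/Y657* mice, a change of 0.38 ± 0.08 (adjusted p = 0.00082). Hspa5 differed by 0.18 ± 0.20 and Creld2 by 0.51 ± 0.29, and neither passed. Without mouse ONF_MT_826 these became -0.14 ± 0.16 and 0.17 ± 0.26, so that the estimate for Hspa5 changed sign.

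The 8 genes had a median exon length of 2607.5 bases, from 1271 to 6808, against 4196.5 bases, from 1108 to 12853, for the other 44. In this comparison short genes as a whole lay higher in WT/Y657* mice, the fifth of all genes with the shortest exons having a median of 0.09, compared with -0.02 for the fifth with the longest. With exon length and GC content corrected, 5 of the 8 were called, namely Sec61g, Herpud1, Ostc, Ssr4 and Sec11c. Of those not called, Mcfd2 went from 0.22 to 0.21 (adjusted p = 0.0633), Sec61b from 0.29 to 0.24 (adjusted p = 0.0924) and Spcs1 from 0.32 to 0.16 (adjusted p = 0.197). The count was also 5 without WT/Y657* mouse ONF_MT_923 and when genes of low count were not filtered out. In refed mice none of the 52 genes differed between genotypes by edgeR (8 at an unadjusted p under 0.05, and 0 by DESeq2), while 0.0287% of all genes did, and the median log2 fold change was 0.11. Estimates were positive for 45 of the 52 and negative for 7, against 7184 and 6761 of all genes. All 17 chaperone and folding genes had positive estimates, which come from the same libraries and are not separate events. The largest estimates were 0.52 ± 0.21 for Syvn1 and 0.47 ± 0.17 for Dnajb9, a BiP co-chaperone that restrains IRE1.

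**Figure D4:**
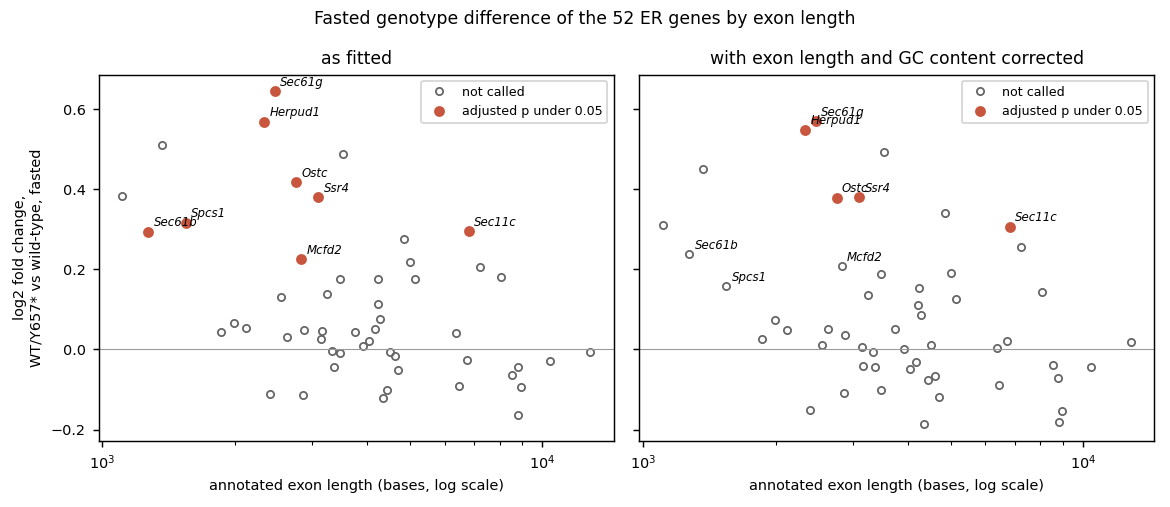
Log2 fold change between fasted WT/Y657* and wild-type mice (vertical axis) against annotated exon length in bases (horizontal axis, log scale) for the 52 genes, as fitted (left) and with length and GC content corrected (right). Filled points passed an adjusted p of 0.05. The 8 genes called on the left are named in both panels, and 5 remain filled on the right.

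The genes whose promoters held the ER stress response element were next set beside the others, as a description. Of the 9 genes with the element 7 were chaperone and folding genes, while all 17 translocation and glycosylation genes with a promoter were among the 33 without it. Element and role therefore go together, and the part of each in the medians below was not tested. In fasted wild-type mice all 9 genes with the element fell, with a median log2 fold change of -1.45 and a range from -2.68 to -0.58, and the 33 genes with a promoter and no element had a median of -0.77 and a range from -3.09 to 0.04. In fasted WT/Y657* mice 5 of the 9 genes and 25 of the 33 fell, against 17.7% of all genes, with medians of -0.54 and -0.48. On refeeding the medians with and without the element were 1.13 and 0.43 in wild-type and 1.21 and 0.42 in WT/Y657* mice. The 10 genes with no promoter had medians of -0.97 in fasted wild-type and -0.76 in fasted WT/Y657* mice. Their medians on refeeding were 0.51 and 0.68. Between fed genotypes 5 of the 9 genes and 9 of the 33 were lower in WT/Y657* mice, against 1.15% of all genes, with medians of -0.69 and -0.19. With the run of mouse numbers as a covariate none of these genes was called. Between refed and fed wild-type mice the medians were -0.27 and -0.28. Sdf2l1, with the largest decrease in the fast, had a promoter in the table and no match to these letters, while Manf and Hyou1 were among the 10 genes without one. The 8 other tested genes of the liver whose promoters held the element had medians of -0.16 in the fast and 0.11 on refeeding in wild-type mice. Of these 8, 2 fell in the fast and 4 rose on refeeding, against 17.5% and 16.5% of all genes. Between fed genotypes their median was 0.14, and 1 was lower.

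**Figure D5:**
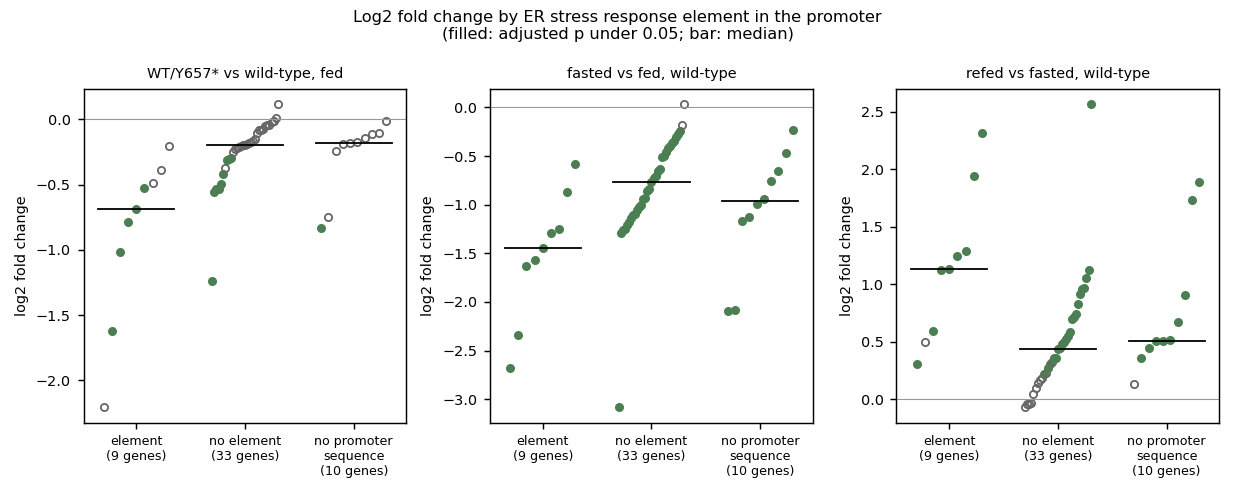
Log2 fold change (vertical axes, scaled separately) of the 52 genes, grouped by whether the promoter held the ER stress response element, in the comparisons of fed genotypes, of fasted with fed wild-type mice and of refed with fasted wild-type mice. Filled points passed an adjusted p of 0.05 and the bar is the median, at -1.45 for genes with the element and -0.77 for those without in the fast.

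The remaining genes of the pathway responded less uniformly. Of 24 sensors and factors of the unfolded protein response, 23 were tested, and in fasted wild-type mice 9 fell and 3 rose. Of all 13945 genes tested, 2436 (17.5%) fell and 2028 rose. Xbp1, whose spliced form encodes the transcription factor, had medians of 307.5 CPM in fed, 154.3 CPM in fasted and 237.2 CPM in refed wild-type mice, with log2 fold changes of -1.09 ± 0.11 in the fast and 0.68 ± 0.11 on refeeding. It was also lower in fed WT/Y657* mice, at -0.45 ± 0.11 (adjusted p = 0.0216), and was the only gene of that list called there. Gene-level counts do not separate its spliced and unspliced forms. Ern1, which encodes the sensor IRE1, fell in the fast by 1.13 ± 0.17 on the log2 scale, and Atf6 by 0.44 ± 0.08. Atf4 and Ddit3, factors of the PERK branch, did not pass the test in the fast, at -0.04 ± 0.12 and -0.01 ± 0.26, and Trib3, a target of that branch, rose by 1.66 ± 0.42.

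The next counts for fasted wild-type mice stand beside the same 2436 of 13945 genes that fell and 2028 that rose. Among other genes of ER folding, 23 of 40 tested fell and 1 rose in fasted wild-type mice, with a median of -0.32. For other translocation and glycosylation genes 21 of 48 fell and 4 rose, with a median of -0.11. Other ERAD genes had 9 of 32 falling and 6 rising, with a median of -0.05, and other genes of ER exit and retrieval had 20 of 30 falling and 3 rising, with a median of -0.39. On refeeding of wild-type mice these 4 lists had 17, 21, 9 and 14 genes that rose and 3, 4, 5 and 3 that fell. Of all 13945 genes, 2300 rose and 1917 fell. Between fed genotypes the 4 lists had 3, 0, 1 and 3 genes that were lower and none that was higher in WT/Y657* mice. Of all 13945 genes, 161 were lower and 169 higher.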

How the data were processed

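Genotype, feeding state and mouse number were read from the sample labels, and sex and heterozygosity from the study's methods. Libraries were made from total liver RNA with a stranded kit and sequenced as single reads. The authors deposited estimated counts per gene and mouse, not normalised, of which 3.29% of those above 0 were not whole, and these were rounded. The labels name Cuffdiff, featureCounts, SAMtools and edgeR, and counting on human genes, and the processing notes name mm9, yet the deposited positions overlap those of GRCm38 (GENCODE M21) for 99.7% of matched genes. Versions and strand setting are not given in the sources used here. The deposited table of fitted group means, which holds no variation between mice, was not used.

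In R 4.3.3 with edgeR 4.0.16, filterByExpr (minimum count 10, 6 groups) kept 13945 genes. Libraries were scaled by TMM, and glmQLFit (robust) was fitted over all 36 libraries. Two-sided quasi-likelihood p-values were corrected across those genes (Benjamini-Hochberg), at a threshold of 0.05. A SE follows each log2 fold change after ±. Differences between genotypes' responses were tested as interaction contrasts. Mice of a group were separate animals, with a biological coefficient of variation of 0.181. On simulated counts for the fed comparison with 200 genes changed, 71.0% were recovered (53.0% at a log2 change of 0.5, 91.0% at 1.5) and 4 of 146 calls were false.

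The genes and the lists set beside them were chosen with earlier results of these data known. Named in every comparison were 32 genes. They were those with the lowest p of their role in at least 1 comparison, further genes chosen by role, and the highest and lowest per kilobase. Others were named where they were called or were exceptions. Alternatives were DESeq2 1.42.0, a likelihood ratio test, other scalings and filters, fits of the compared groups alone, a length and GC correction, mouse number runs as a covariate, and each mouse left out (for comparisons other than those of genotype, and for their differences, chosen after seeing the data, as were the runs for differences that involve fed mice). Protein sequences were not analysed here.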

Additional observations from a re-analysis of the deposited data

Results flagged for a closer look

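Of 192 groups of 6 mice examined over the named genes, 15 had a mouse whose distance from its nearest neighbour exceeded Dixon's 95% limit, and chance flags about 1 in 20 such groups. Of the 15, 7 were WT/Y657* fasted mouse ONF_MT_826, which was the highest of its group for Hspa5 (1488 CPM, next 771.2), Hsp90b1 (1142, next 681.0), Calr (839.1, next 543.8), Creld2 (64.1, next 31.1), Manf (108.1, next 56.4), Derl3 (6.55, next 1.36) and Dad1 (30.96). Wild-type fasted mouse ONF_WT_807 was the highest of its group for Pdia6 (167.3 CPM, next 136.4), Sdf2l1 (14.03, next 7.80) and Derl3 (4.77, next 1.84). WT/Y657* refed mouse RF6_MT_897 was the lowest for Sec61b (25.99 CPM, next 30.9) and Tram1 (163.4, next 190.5). Single mice stood apart for Dnajb9 (WT/Y657* fed mouse ALC_MT_859, 64.5 CPM), Manf (wild-type refed mouse RF6_WT_816, 173.9 CPM) and Ssr4 (wild-type fed mouse ALC_WT_848, 64.3 CPM). Since the flags of 1 mouse come from the same library, they are not separate events.

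The response to fasting differed between genotypes, in log2 units as the WT/Y657* response minus that of wild-type, for Creld2 (2.13), Sdf2l1 (1.62), Syvn1 (1.29), Manf (1.24), Hyou1 (1.03), Hspa5 (0.96), Sec61g (0.81), Herpud1 (0.76), Hsp90b1 (0.71), Dnajc3 (0.70), Dnajb11 (0.67), Ostc (0.60), Sec11c (0.53) and Ssr4 (0.43). The response to refeeding differed for Sec61g (-0.72), against 1.46% of all genes that differed in that direction, and this call was not kept in every fit that left out 1 mouse. The difference between refed and fed mice differed for Creld2 (2.02), Syvn1 (1.54) and Dnajc3 (0.64). The first and last of these families share the fed mice, and none of their calls remained with mouse number runs as a covariate.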

How the results depend on the processing

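No paired analysis was possible because the mouse numbers in the labels differ between all groups. The counts of ER genes called on fasting (50 in wild-type, 39 in WT/Y657* mice), on refeeding (39 and 42), between refed and fed mice (27 and 29) and between refed genotypes (0) stayed within 1.5 times under every alternative that was fitted, with 24 to 29 and 22 to 26 calls for refed against fed, and 33 to 41 for WT/Y657* fasting, when 1 mouse was left out. Mouse number runs were not fitted as a covariate for fasting or for refed against fed, where run and feeding state cannot be told apart. The 15 calls between fed genotypes became 0 with mouse number runs as a covariate and 1 with fed libraries alone (5 to 23 when leaving out 1 mouse). The 8 calls between fasted genotypes became 5 with the length and GC correction and 5 without a filter (5 to 9). The 14 differences in the fasting response became 0 with mouse number runs as a covariate, 8 without a filter and 8 with the compared groups alone (9 to 18). The 1 difference in the refeeding response became 0 with the length and GC correction, with library size scaling and without a filter (0 to 1), and the 3 differences between refed and fed became 0 with mouse number runs as a covariate, 11 with DESeq2, 5 with the likelihood ratio test and 8 with the compared groups alone (0 to 8). Without a filter more genes are tested; for the others the cause was not tested. Over the 174 calls of named genes, 1362 of 1471 refits kept direction and call, 109 kept direction only, and none reversed, and with 1 mouse left out 2048 of 2280 kept both. Most named genes were picked for a low p in these same data, so these shares do not describe an unselected set. Levels per kilobase of 22 of 32 named genes moved by more than 1 SD when the longest transcript replaced the exon union. In the simulated fed comparison 53% of changes of 0.5 on the log2 scale were recovered, and the other comparisons were not simulated. Genes that did not pass are not shown to be alike.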
